A study of Mus musculus with 12 samples.

Results

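The genes of the constitutive proteasome were followed through the response of follicular (FO) B cells to CpG and IFNα. They are the genes for the subunits of the 20S core and the 19S cap, for the chaperones that assemble them, and for the activators and the inhibitor that bind the core. They were taken by symbol, as the protein-coding genes named Psma to Psmg followed by a digit. The interferon-inducible catalytic subunits Psmb8, Psmb9 and Psmb10 and the activator genes Psme1, Psme2 and Psme2b were left out. The rule found 44 of the 22561 genes in the count table. Of these, 42 passed the filter on low counts, among 9431 genes in all. The rule used names only and no measured value. The 12 samples were RNA of FO B cells that had been sorted from the spleens of 10-week-old C57BL6 mice with no allele or transgene named in the labels. Of the 4 groups of 3 samples, 1 was unstimulated, and the others had received IFNα, CpG, or CpG + IFNα for 12 h. CpG oligodeoxynucleotides are ligands of TLR9, the endosomal receptor for DNA, and IFNα acts on the type I interferon receptor. The sources used here do not say if unstimulated cells spent that time in culture, or if the 3 samples of a group came from separate mice. The p-values therefore measure the spread between these samples, which may be partly technical.

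The proteasome is the protease that degrades most ubiquitin-tagged proteins in the cytosol and nucleus. Its barrel-shaped 20S core has outer rings of α subunits, which form the gate, and inner rings of β subunits, which hold the active sites. The 19S cap binds ubiquitin chains, removes them, and unfolds the substrate with a ring of ATPases. Lymphocytes can replace the constitutive catalytic subunits with interferon-inducible ones, which makes the immunoproteasome that generates many peptides for MHC class I. Activated B cells make large amounts of protein and are known to be sensitive to proteasome inhibitors once they become plasma cells.

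Levels are given as normalized CPM, that is, each gene's UMI counts as CPM with library sizes scaled by edgeR's TMM factors. Each transcript is tagged at its 3′ end, so levels can be set side by side between genes without division by length. Total counts per sample were between 922450 and 1103064 in unstimulated cells and between 1067324 and 1689570 with IFNα. They were between 1393018 and 1985810 with CpG and between 1884673 and 2923865 with CpG + IFNα. All 8 B cell markers passed the filter, whereas none of the 4 T cell markers or the 6 myeloid markers in the table did. The summed level of the B cell markers was between 8038 and 9234 in unstimulated samples and between 6962 and 7875 with IFNα. With CpG it was between 1376 and 1545, and with CpG + IFNα between 1208 and 1320. Fcer2a, which encodes CD23 and defines FO B cells, had a mean of 1227 in unstimulated cells and 21.3 with CpG. Summed erythroid markers, 3 of 5 past the filter, were between 42.4 and 289 in unstimulated samples and between 13.0 and 296 with IFNα, and between 3.99 and 49.1 with CpG and 1.03 and 58.4 with CpG + IFNα. The 3 marginal zone markers, all past the filter, were summed between 214 and 217 in unstimulated samples and 87.8 and 121 with IFNα, and between 42.4 and 54.9 with CpG and 27.8 and 36.5 with CpG + IFNα. Plasma cell markers, 2 of 4 past the filter, were between 119 and 145 in unstimulated samples, 97.9 and 114 with IFNα, 54.2 and 80.4 with CpG and 45.9 and 73.5 with CpG + IFNα. Of the 3 plasmacytoid dendritic cell markers 1 passed, Tcf4, which B cells express too, and the defining marker Siglech had 0 counts in all samples. Mitochondrial transcripts took between 2.99% and 8.52% of counts and were lowest in the groups with CpG. The part of these shifts in the results below was not tested. Levels are shares of each sample's RNA, so that fewer cells expressing a gene and less RNA of it per cell cannot be told apart, nor can a change in the total RNA of a cell be seen.

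The promoters of a few members are shown because these genes carried the main pattern, which was higher RNA with CpG. For 36 of the 44 members RefSeq promoter sequences (GRCm38.p6) of 250 bases before to 50 after the start were on hand, and 120 bases before the start are printed. They are those of the catalytic subunits Psmb5 (chr14:54617996-54618115 on the minus strand) and Psmb6 (chr11:70525237-70525356 on the plus strand), the α subunit Psma6 (chr12:55384102-55384221 on the plus strand), the assembly chaperone Psmg1 (chr16:95990961-95991080 on the minus strand) and the activator Psme3 (chr11:101316093-101316212 on the plus strand). These were chosen after their values were seen. Capitals mark letters of the motifs that were searched, on either strand, so that ATTGG is CCAAT on the other strand.
Psmb5: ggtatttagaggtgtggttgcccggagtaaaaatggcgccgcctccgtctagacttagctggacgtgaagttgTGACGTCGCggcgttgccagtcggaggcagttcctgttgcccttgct
Psmb6: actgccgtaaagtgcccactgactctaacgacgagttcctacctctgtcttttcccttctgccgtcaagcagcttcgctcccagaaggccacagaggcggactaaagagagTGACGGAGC
Psma6: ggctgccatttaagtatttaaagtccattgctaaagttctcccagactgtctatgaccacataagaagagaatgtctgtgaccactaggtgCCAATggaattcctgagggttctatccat
Psmg1: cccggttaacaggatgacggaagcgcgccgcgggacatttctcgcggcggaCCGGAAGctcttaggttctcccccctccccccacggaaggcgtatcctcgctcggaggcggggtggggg
Psme3: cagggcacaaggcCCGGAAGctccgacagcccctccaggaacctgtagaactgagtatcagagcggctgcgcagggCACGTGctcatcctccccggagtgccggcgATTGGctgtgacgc
TGACNNNGC is the core of the element bound by NFE2L1 and NFE2L2, the former of which is the known inducer of proteasome genes when proteasome activity is low. It lay in the promoters of 6 of the 36 members (16.7%), namely Psmb5, Psmb6, Psmc6, Psmd9, Psmd12 and Psme4, and in 12.5% of all 27025 promoters of the same length. Over the 7234 promoters of genes that passed the filter, the share was 15.1%. CCAAT, bound by NF-Y, was in 14 members (38.9%), in 37.9% of all promoters and in 39.4% of those of genes that passed the filter. The E-box CACGTG, bound by MYC among others, was in 3 members (8.33%), between the shares of 7.24% over all promoters and 11.4% over those of genes that passed the filter. CCGGAAG, bound by ETS factors, was in 14 members (38.9%), in 9.12% of all promoters and in 22.0% of those of genes that passed the filter. No match of a motif overlapped one of another. A match describes the letters only and was not tested as a binding site.

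CpG raised nearly every member. In CpG against unstimulated cells, 41 of the 42 members tested were higher and 0 were lower at an adjusted p under 0.1, by edgeR's quasi-likelihood test with Benjamini-Hochberg adjustment over all genes. Among all genes tested, 36.5% were higher and 38.4% lower. The median log2 fold change of the members was 1.51, beside -0.03 for all genes tested, and 36 members also passed a fold change of 2, as did 20.1% of all genes. CpG + IFNα against unstimulated cells gave 41 higher and 0 lower, a median of 1.63 and 35 members past a fold change of 2. The background for that comparison was 37.6% higher, 38.8% lower, and 20.3% higher with a fold change over 2. In 40 members every CpG sample lay above every unstimulated sample, a separation seen for 36.1% of all genes tested. Since samples with CpG were sequenced more deeply, counts were also drawn down to the smallest total, and 40 members were then higher with CpG. Both comparisons share the 3 unstimulated samples. The exception in both was Psme4, described with the activators.

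**Figure D1:**
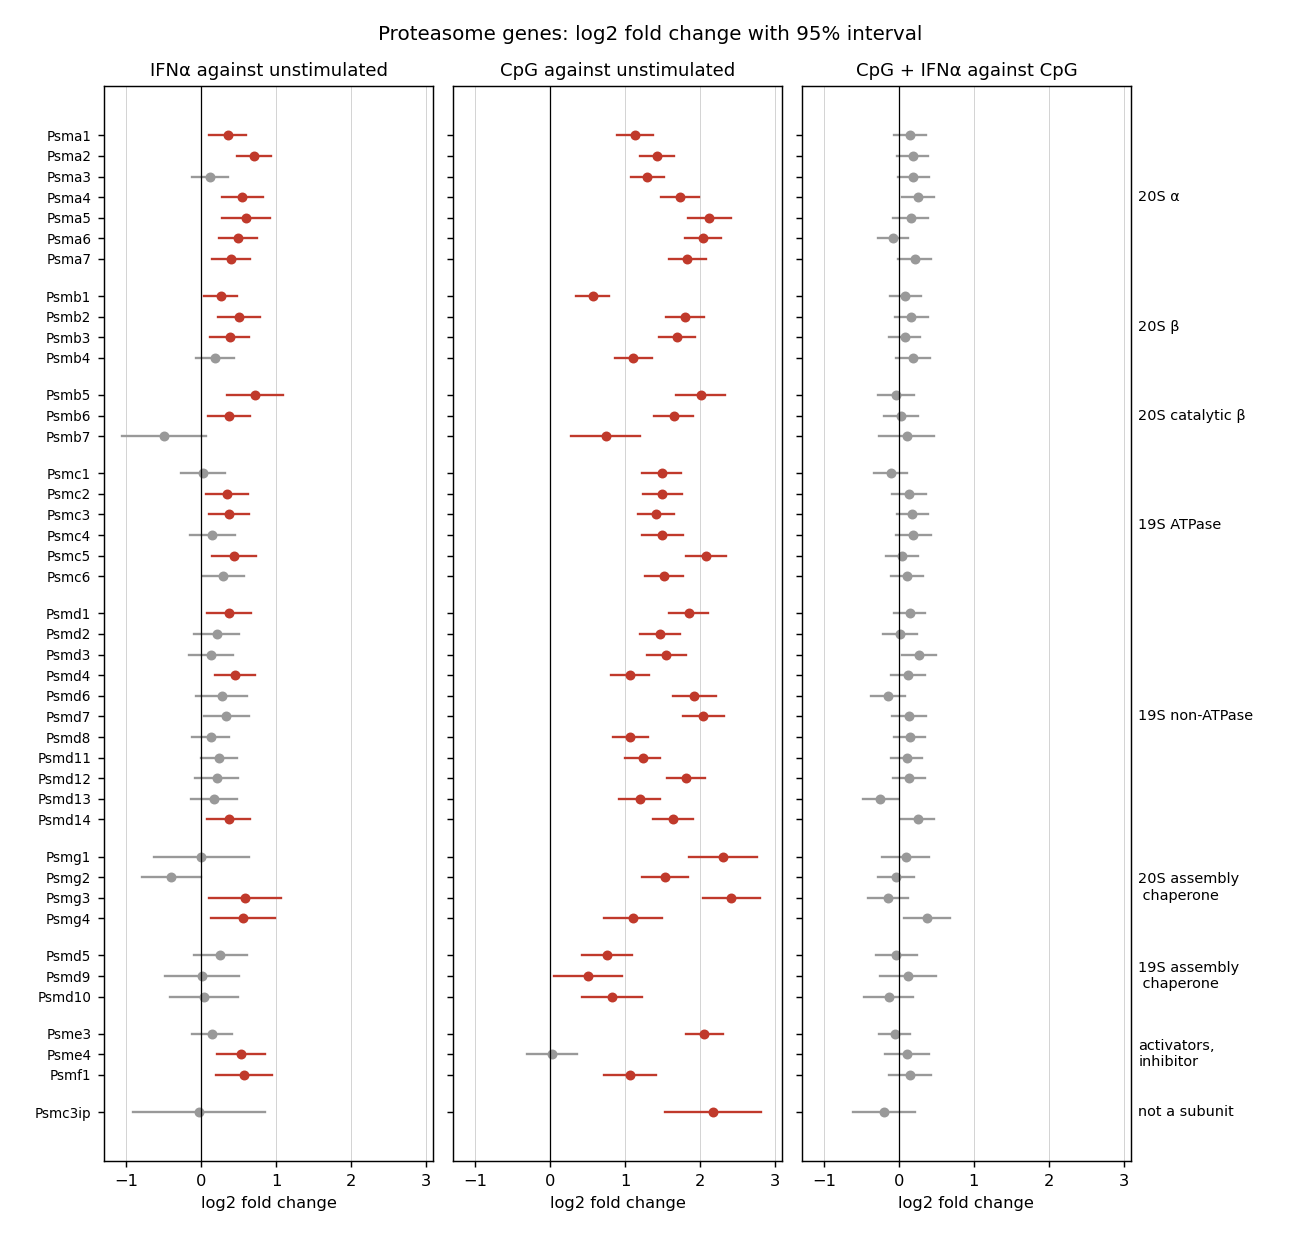
Log2 fold change (horizontal axis) of the 42 members tested, 1 per line and grouped by role, in IFNα against unstimulated, CpG against unstimulated and CpG + IFNα against CpG. Points are edgeR estimates, bars are 95% intervals, red marks an adjusted p under 0.1 and grey marks all others. With CpG all points but that of Psme4 are red and right of 0, with IFNα 21 are red, and none is red when IFNα is added to CpG.

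Summed over the members, the level was 3952, 4054 and 4185 normalized CPM in the unstimulated samples, a mean of 4064 ± 117 (SD, n = 3). The mean was 5117 ± 374 (SD, n = 3) with IFNα and 11412 ± 724 (SD, n = 3) with CpG. CpG + IFNα gave 12310.3 ± 755 (SD, n = 3). The lowest sample with CpG, at 10804, was above the highest with IFNα, at 5495. As a share of the raw counts of a sample, the members took between 0.395% and 0.430% in unstimulated samples and between 1.09% and 1.21% with CpG. These sums are a description and were not tested.

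**Figure D2:**
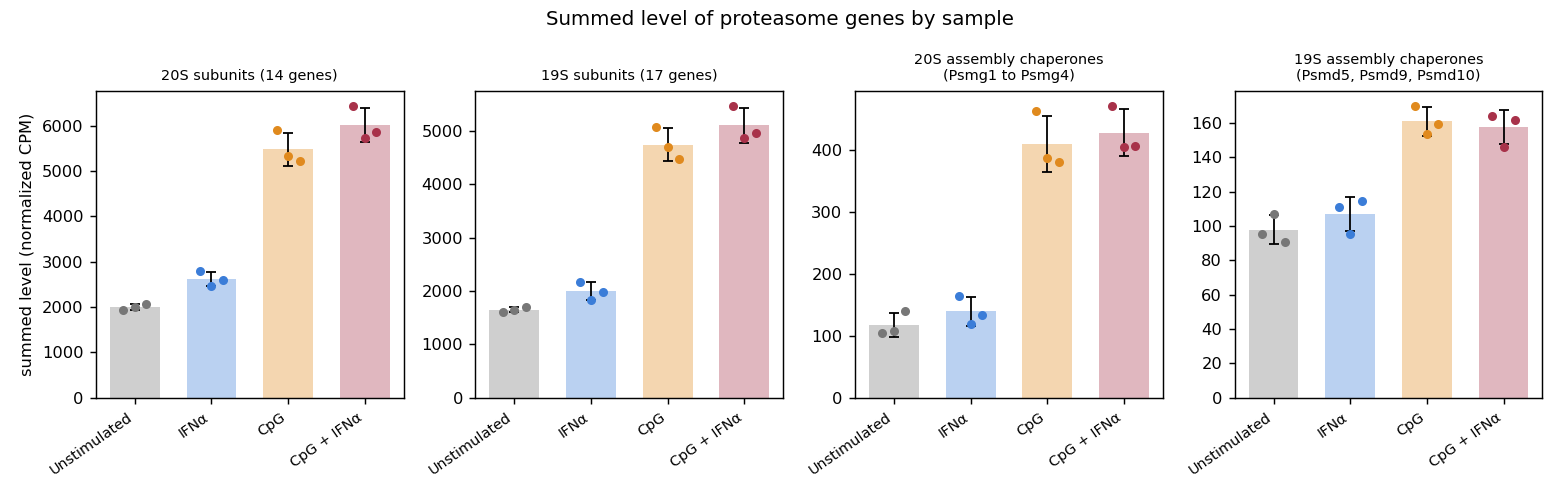
Summed normalized CPM (vertical axis, from 0) of the 20S subunits, the 19S subunits and the chaperones of each particle in the 4 groups. Points are samples, bars are means and error bars are SD (n = 3). The 20S sum goes from a mean of 1999 ± 67.8 in unstimulated cells to 5476 ± 364 with CpG, while the sum of the 19S chaperones goes only from 97.8 ± 8.27 to 161 ± 8.52.

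The catalytic subunits of the 20S core differed widely in level and in response. Psmb5, which carries the chymotrypsin-like activity (chromosome 14, 54614119 to 54618022, GRCm38), was at 24.6, 46.0 and 33.5 normalized CPM in the unstimulated samples and 58.5, 52.9 and 58.0 with IFNα. It was at 151, 127 and 136 with CpG and 134, 132 and 136 with CpG + IFNα. No sample with CpG overlapped one without it, and the log2 fold change of CpG against unstimulated was 2.01 (standard error, SE, 0.16, adjusted p = 7.46e-13 by edgeR). Psmb6, with the caspase-like activity (chromosome 11, 70525367 to 70527858), was at 119, 124 and 124 in unstimulated samples and 428, 383 and 345 with CpG. Its log2 fold change was 1.65 (SE 0.13, adjusted p = 3.70e-13 by edgeR). Psmb7, with the trypsin-like activity (chromosome 2, 38588036 to 38644087), was far lower, at 15.5, 17.1 and 22.9 in unstimulated samples and 35.6, 33.5 and 25.5 with CpG. It rose by a log2 fold change of 0.74 (SE 0.23, adjusted p = 0.00440), and its groups did not overlap. With IFNα alone all 3 Psmb7 values, 12.1, 14.6 and 12.2, lay below those of unstimulated cells, but the log2 fold change of -0.50 did not pass the test (adjusted p = 0.224). The gene Nek6 is annotated across the last 500 bases of Psmb7, where 3′ tags fall. The strand setting of the counting is not given in the sources used here, so the level of Psmb7 is uncertain.

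The α subunits of the outer rings rose together. All 7, Psma1 to Psma7, were higher with CpG and past a fold change of 2, with log2 fold changes from 1.13 (Psma1) to 2.13 (Psma5) and a median of 1.74. Psma6 (chromosome 12, 55384222 to 55418454) had the smallest p of all members. It was at 106, 111 and 112 normalized CPM in unstimulated samples and 472, 475 and 414 with CpG, a log2 fold change of 2.04 (SE 0.12, adjusted p = 1.95e-16). Psma7 had the highest mean level of all members over the 12 samples. It was at 200.2, 216 and 244 in unstimulated samples, 902, 731 and 721 with CpG and 970.4, 862 and 884 with CpG + IFNα, and the log2 fold change of the last against unstimulated cells was 2.04 (adjusted p = 3.26e-16). Psma8, the α subunit of the testis, and Psmb11, the catalytic subunit of thymic cortical epithelium, had at most 2 counts in any sample. This is under the limit of 3 counts for a single sample, and both were left out of the tests.

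The structural β subunits Psmb1 to Psmb4 were all higher with CpG, 3 of them past a fold change of 2. The range within the ring was wide. Psmb1 was the most abundant 20S or 19S gene in unstimulated cells, at 339, 324 and 371 normalized CPM, and had the smallest rise of any 20S subunit. With CpG it was at 535, 527 and 476, a log2 fold change of 0.57 (SE 0.11, adjusted p = 2.10e-05). Psmb2 and Psmb3 had log2 fold changes of 1.80 and 1.70. Psmb1 was described for its level and its small change after its values were seen.

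**Figure D3:**
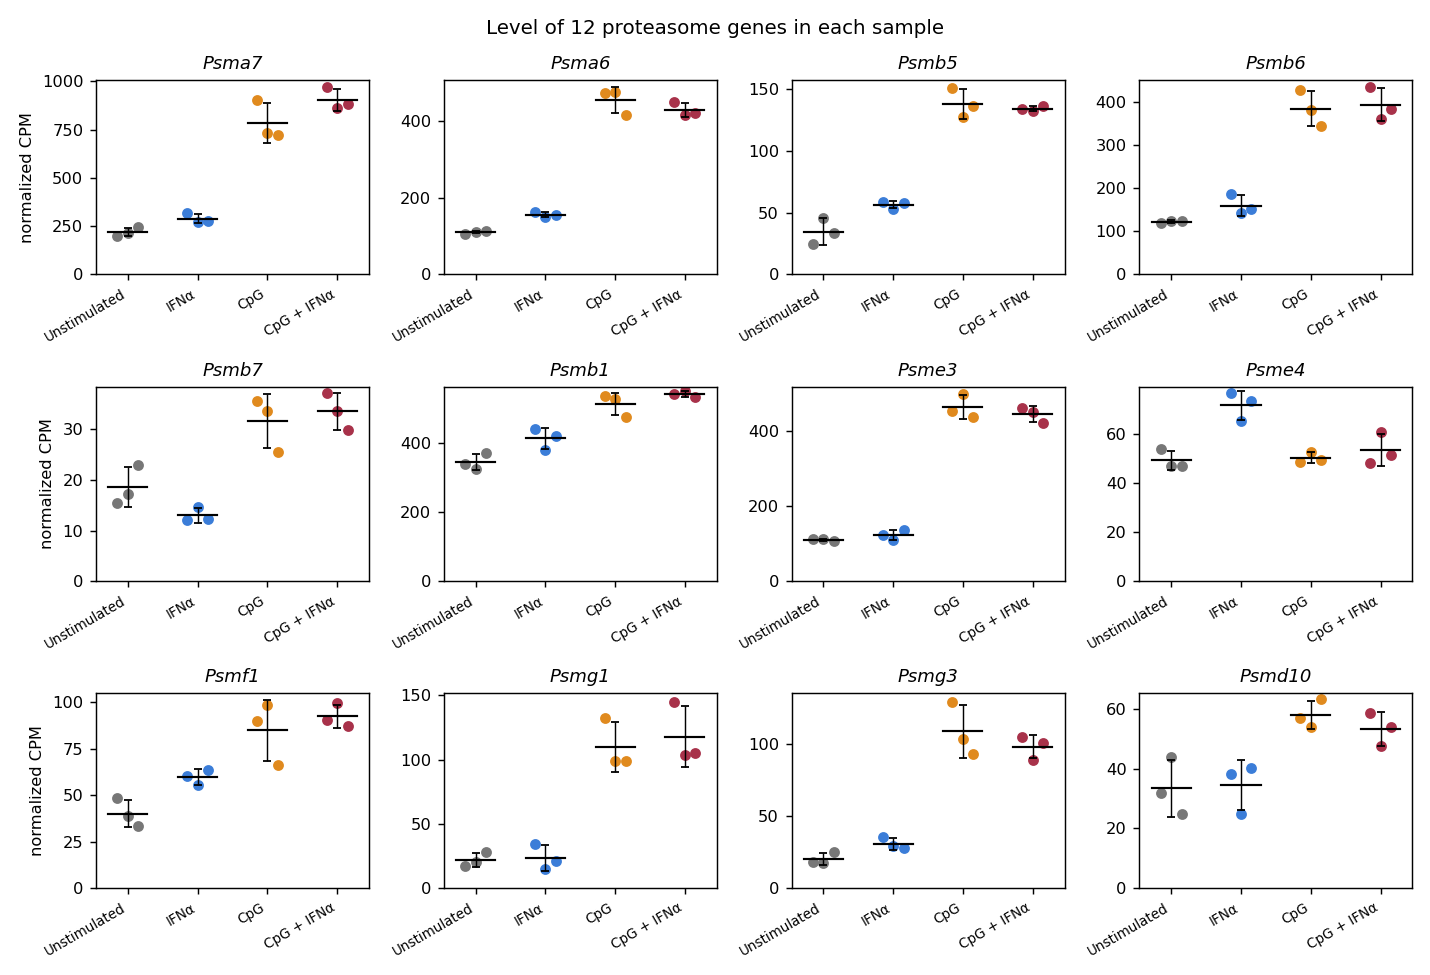
Normalized CPM (vertical axis, from 0) of 12 members in the 4 groups, picked to show each role and the exceptions. Points are samples, the long line is the mean and error bars are SD (n = 3). In 11 panels the CpG means are above the unstimulated means by a fold of 1.48 or more, whereas Psme4 stays at 49.2 and 50.2 and is highest with IFNα, at 71.7.

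In the 19S cap, CpG raised all 17 members that are subunits past a fold change of 2. The 6 ATPases, Psmc1 to Psmc6, had log2 fold changes from 1.42 to 2.08. Psmc5, the ATPase with the higher of these values, was at 76.4, 65.2 and 80.3 normalized CPM in unstimulated samples and 341, 318 and 285 with CpG, without overlap (SE 0.13, adjusted p = 2.08e-15). The log2 fold changes of the 11 non-ATPase subunits ranged from 1.07 for Psmd4, a ubiquitin receptor, to 2.05 for Psmd7, the partner of the deubiquitinase Psmd14. Psmd14 itself, which removes the ubiquitin chain from the substrate, had a log2 fold change of 1.64, and Psmd2, a docking site for ubiquitin-binding proteins, one of 1.47. With CpG + IFNα, 10 of these 11 stayed past a fold change of 2, and the other, Psmd13, had a log2 fold change of 0.94.

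The chaperones of the core and those of the cap are given apart. Psmg1 to Psmg4 act in pairs to assemble the α ring, and all 4 were higher with CpG and past a fold change of 2, with a median log2 fold change of 1.93. Psmg1 (chromosome 16, 95979933 to 95990960) was at 17.3, 20.3 and 28.2 normalized CPM in unstimulated samples and 133, 99.1 and 98.8 with CpG. Its log2 fold change was 2.31 (SE 0.22, adjusted p = 6.31e-11). Psmg3 was at 18.2, 17.1 and 24.7 in unstimulated samples and at 129.5, 103 and 93.4 with CpG, and had the largest log2 fold change of any member, 2.42 (SE 0.19, adjusted p = 4.00e-13). Psmg2 was at 42.8, 32.1 and 38.8 in unstimulated samples and at 104, 108 and 119 with CpG, and Psmg4 at 25.5, 38.5 and 48.5 and at 97.0, 77.0 and 69.4. Neither overlapped, and they rose by fold changes of 2.90 and 2.15. The chaperones of the 19S base, Psmd5, Psmd9 and Psmd10, were higher as well, but none reached a fold change of 2. Psmd5 was at 43.7, 41.7 and 36.2 in unstimulated samples and 74.3, 64.2 and 66.9 with CpG (log2 fold change 0.76, adjusted p = 0.000113). For Psmd10 the same samples were at 31.8, 43.9 and 24.7 and at 57.1, 54.2 and 63.4 (log2 fold change 0.83, adjusted p = 0.000432). Psmd9 was at 20.02, 21.4 and 30.003 in unstimulated samples and at 38.7, 34.9 and 29.0 with CpG, values that overlapped, with a log2 fold change of 0.50 (SE 0.22, adjusted p = 0.0460). Its call was lost by DESeq2 (adjusted p = 0.123) and when counts were drawn down to the smallest total (adjusted p = 0.159). It was also lost without unstimulated replicate 1, unstimulated replicate 2 or CpG replicate 1, each in turn, with an adjusted p between 0.108 and 0.163. The difference between the chaperones of the 20S core and those of the 19S base was not tested as such.

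The alternative activators of the core went separate ways. Psme3, the nuclear activator that does not depend on ATP or ubiquitin (chromosome 11, 101316213 to 101323537), was at 112, 112 and 108 normalized CPM in unstimulated samples and 123, 110.1 and 135 with IFNα. It was at 453, 498 and 436 with CpG and 461, 449.9 and 420.4 with CpG + IFNα, with no overlap between samples with and without CpG. The log2 fold change with CpG was 2.06 (SE 0.12, adjusted p = 2.53e-16). Psme4, the large activator linked to histone degradation and DNA repair (chromosome 11, 30771726 to 30880361), was at 53.7, 47.1 and 46.8 in unstimulated samples and 48.5, 52.7 and 49.4 with CpG. The groups overlapped, and the log2 fold change was 0.03 with a 95% interval of -0.30 to 0.36, which does not reach a fold change of 2. With IFNα all 3 values, 76.7, 65.1 and 73.3, were above those of unstimulated cells, a log2 fold change of 0.53 (SE 0.16, adjusted p = 0.0158). Psmf1, an inhibitor of the isolated core, was at 48.2, 38.5 and 33.5 in unstimulated samples, 60.5, 55.3 and 63.3 with IFNα and 89.6, 98.4 and 66.4 with CpG. It was higher with IFNα (log2 fold change 0.57, adjusted p = 0.0274) and with CpG (1.06, adjusted p = 2.00e-06).

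Psmc3ip matched the rule by its symbol but is no subunit. It encodes a factor of meiotic recombination that was named for binding an ATPase of the cap. It was at 7.28, 5.35 and 4.41 normalized CPM in unstimulated samples and 22.7, 22.8 and 31.5 with CpG, a log2 fold change of 2.18 (SE 0.31, adjusted p = 2.46e-07). Its groups did not overlap. The gene Mlx is annotated across its last 500 bases, as is another gene on the other strand across those of Psma3 and Psmc3, so that these 3 are uncertain in the way that Psmb7 is. Across the last 500 bases of Psmd1 the gene Gm21972 is annotated on the same strand, so that the count of Psmd1 is uncertain whatever the strand setting.

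Between the groups stimulated for 12 h, CpG + IFNα against IFNα gave 41 members higher and 1 lower, beside 36.1% higher and 39.8% lower among all genes. Of the members, 31 were past a fold change of 2 (18.7% of all genes), and the median log2 fold change was 1.35. The unstimulated samples are not compared here, but they enter the filter, the scaling and the estimate of the spread. The smallest p-values were those of Psme3, at a log2 fold change of 1.86 (adjusted p = 8.96e-16), Psmd12, at 1.74 (adjusted p = 8.75e-15), and Psmd7, at 1.85 (adjusted p = 1.13e-14). Psmd12 and Psmd7 are subunits of the lid of the cap. Psmd12 went from 86.8, 91.2 and 97.7 normalized CPM with IFNα to 323, 308 and 294 with CpG + IFNα, and Psmd7 from 136, 102 and 117 to 459, 396 and 409.6. Psme4 was the member that fell, with a log2 fold change of -0.40 (SE 0.14, adjusted p = 0.0124). With no filter on low counts Psme4 lost its call (adjusted p = 0.168).

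In IFNα alone against unstimulated cells, 21 of the 42 members were higher and 0 lower, all by less than a fold change of 2. Since it is not known if unstimulated cells were cultured, effects of IFNα and of culture cannot be told apart in this comparison. Among all genes, 12.4% were higher and 11.9% lower. The median log2 fold change of the members was 0.31, beside 0.00 over all genes tested, and in 26 members no IFNα sample overlapped the unstimulated ones from above, as for 16.4% of all genes. The 20S core held more of the calls than the cap, with 6 of 7 α subunits and 5 of 7 β subunits against 3 of 6 ATPases and 3 of 11 non-ATPase subunits. That difference in share was not tested. Psma2 led, at 225, 213 and 204 in unstimulated samples and 363, 328 and 356 with IFNα. Its groups did not overlap, and its log2 fold change was 0.71 (SE 0.11, adjusted p = 1.07e-05). Psma4 was at 90.1, 94.1 and 87.4 in unstimulated samples and 137, 122 and 139.7 with IFNα, a log2 fold change of 0.55 (adjusted p = 0.00282). Psma6 was at 162, 148 and 156 with IFNα, above its unstimulated values given earlier, a log2 fold change of 0.50 (adjusted p = 0.00375). The next was Psmb5, at 0.71 (adjusted p = 0.00467). Of the α ring chaperones, Psmg3 and Psmg4 were higher, at 0.58 and 0.56 (adjusted p = 0.0807 and 0.0581). Psmg1 and Psmg2 had log2 fold changes of 0.00 and -0.40 that did not pass. Many of these calls lay near the threshold. With scaling by library size alone 12 members were higher and 1, Psmg2, was lower, with 11 higher without unstimulated replicate 1, and 13 without either unstimulated replicate 3 or IFNα replicate 1.

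Added to CpG, IFNα gave no member that passed the test. In CpG + IFNα against CpG, 0 members were higher and 0 lower by edgeR or by DESeq2, where 6.54% of all genes were higher and 8.83% lower by edgeR, and 5 members had an unadjusted p under 0.05. The median log2 fold change was 0.11, beside -0.04 over all genes tested, and 0.046 without CpG replicate 3. For the 31 subunits of the core and cap, the 95% intervals reached from -0.48 to 0.49. The smallest adjusted p was that of Psmg4, at 97.0, 77.0 and 69.4 with CpG and 112, 111 and 90.5 with CpG + IFNα (0.37, SE 0.15, adjusted p = 0.110). Psmb5 had a log2 fold change of -0.04 (95% interval -0.29 to 0.20), Psmb6 0.03 (-0.20 to 0.26) and Psmb7 0.10 (-0.26 to 0.46). With other settings between 0 and 4 members were called, all of them higher, and they were Psmg4, Psma4, Psmd3 and Psmd14. There were 3 without unstimulated replicate 3, 2 without IFNα replicate 2, CpG replicate 1 or CpG + IFNα replicate 3, and 1 without unstimulated replicate 1 or IFNα replicate 1, each left out in turn.

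The interaction is the effect of IFNα in the presence of CpG minus its effect without CpG, on the log2 scale. The effect without CpG is taken against unstimulated cells, whose time in culture is not known. Dependence on CpG and an effect of culture therefore cannot be told apart here. It was negative in 4 members and positive in 0 at an adjusted p under 0.1, where 7.58% of all genes were negative and 5.84% positive. The median over members was -0.20, beside -0.05 over all genes tested, and -0.31 without IFNα replicate 2. Psma6 had an interaction of -0.58 (adjusted p = 0.0181), with an effect of IFNα of 0.50 alone and -0.08 with CpG. Psma2 had -0.52 (adjusted p = 0.0227), from 0.71 and 0.18. Psmb5 had -0.76 (adjusted p = 0.0247), from 0.71 and -0.04, and Psmg3 -0.73 (adjusted p = 0.0834), from 0.58 and -0.15. In all 4 the effect of IFNα alone passed the test, and that on top of CpG did not. With no filter on low counts 1 of the 4 calls remained, that of Psmb5, and without unstimulated replicate 1 or unstimulated replicate 3 there were 2.

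In the ratio of cap to core RNA and in that of α to β RNA, the samples of no pair of the 4 groups overlapped. The summed level of 19S over 20S subunits was 0.823 ± 0.00484 (SD, n = 3) in unstimulated cells and 0.761 ± 0.0166 with IFNα. Samples with CpG had a mean ratio of 0.866 ± 0.0137, and those with CpG + IFNα one of 0.849 ± 0.00151. The summed level of α over structural and catalytic β subunits was 1.12 ± 0.0372 in unstimulated cells and 1.24 ± 0.0441 with IFNα. It was 1.47 ± 0.0368 with CpG and 1.53 ± 0.0222 with CpG + IFNα. The highest α to β ratio of an unstimulated sample, 1.17, was below the lowest with CpG, 1.44. The highest cap to core ratio with IFNα, 0.778, was below the lowest of an unstimulated sample, 0.819, and the highest of those, 0.828, was below the lowest with CpG, 0.856. A two-sided exact permutation test of 3 against 3 samples cannot give a p under 0.1, and the ratios are a description that was not tested. The RNA levels of the 31 subunits ranged from 18.5 for Psmb7 to 345 for Psmb1 in unstimulated cells and from 31.5 for Psmb7 to 785 for Psma7 with CpG. In unstimulated cells 25 of the 31 subunits lay within a factor of 2 of their median level, and 27 with CpG.

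The interferon-inducible subunits, the genes most like these, had another pattern. Psmb9, the counterpart of Psmb6, was at 123, 157 and 132 normalized CPM in unstimulated samples, 379, 313 and 356 with IFNα, 33.8, 44.2 and 43.9 with CpG and 157, 170.4 and 187 with CpG + IFNα. With CpG Psmb9 fell (log2 fold change -1.75, adjusted p = 5.14e-12) while Psmb6 rose, and the groups of neither gene overlapped. Psmb10, the counterpart of Psmb7, and Psmb8, that of Psmb5, were also lower with CpG, at -0.84 (adjusted p = 2.35e-06) and -0.54 (adjusted p = 0.000718). IFNα added to CpG raised all 3, by 2.07, 0.51 and 0.50 on the log2 scale, where the constitutive catalytic subunits had values from -0.04 to 0.10 that did not pass. Of the summed catalytic RNA, Psmb8 to Psmb10 made up 80.9 ± 0.546% (SD, n = 3) in unstimulated cells and 85.1 ± 1.57% with IFNα. Their share was 44.0 ± 4.37% with CpG and 56.6 ± 3.03% with CpG + IFNα. The activator genes Psme1 and Psme2 were higher with CpG, at 0.49 and 1.75, and higher again when IFNα was added, at 0.70 and 0.52.

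**Figure D4:**
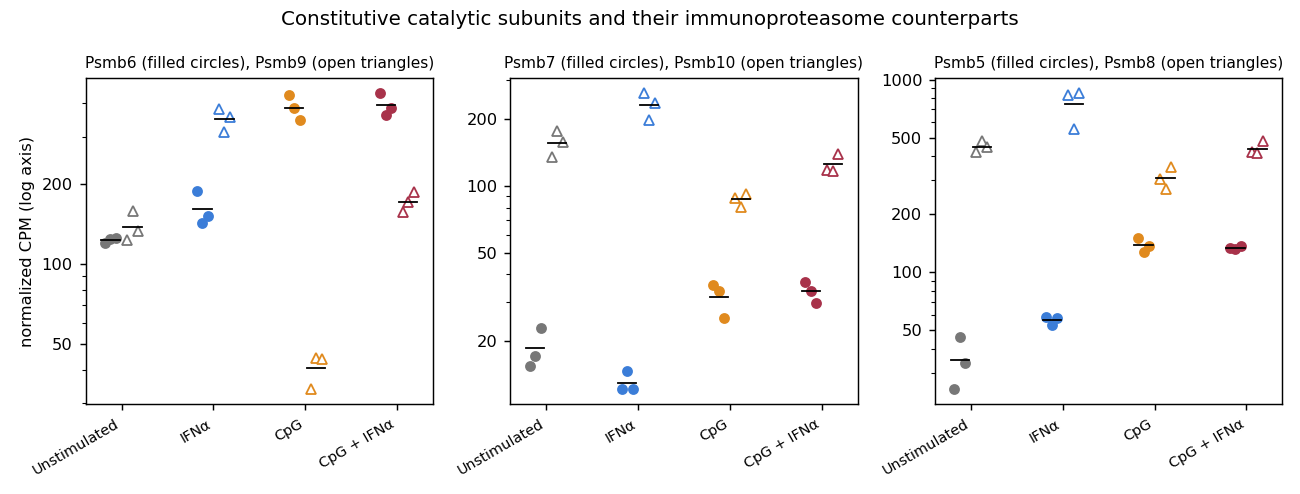
Normalized CPM (vertical axis, log scale, with its own range in each panel) of each constitutive catalytic subunit (filled circles) and its interferon-inducible counterpart (open triangles) in the 4 groups. Points are samples and lines are means. Psmb6 and Psmb9 lie close in unstimulated cells, at means of 123 and 137, and are far apart with CpG, at 385 and 40.6, whereas Psmb8 and Psmb10 stay above Psmb5 and Psmb7 in every group.

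Other genes of the ubiquitin and proteasome pathway moved in part with the members. Of 28 such genes, all tested, 20 were higher and 2 lower with CpG, beside 36.5% higher and 38.4% lower among all genes, with a median log2 fold change of 0.91. Pomp, the chaperone of 20S maturation, Adrm1, a ubiquitin receptor of the cap, and Sem1, a small subunit of its lid, do not carry the Psm symbol and had log2 fold changes of 1.27, 1.63 and 0.92. Sem1 was higher with CpG (adjusted p = 2.29e-07) but did not reach a fold change of 2, unlike the cap subunits among the members. Those with the smallest p were Vcp, the unfoldase that hands substrates to the proteasome, at 1.56 (adjusted p = 1.86e-13), and Txnl1, a thioredoxin of the cap, at 1.75 (adjusted p = 5.16e-13). Uchl5, a deubiquitinase of the cap, followed at 1.52, and Rad23b, a shuttle for ubiquitin chains, at 1.35. Ubqln2, another shuttle, was lower at -1.05 (adjusted p = 7.13e-06), from 63.7, 44.9 and 57.4 in unstimulated samples to 22.7, 27.8 and 29.95 with CpG. Nfe2l1, the inducer of proteasome genes named above, was higher with CpG (0.62, adjusted p = 0.000272). Nfe2l2 was higher with IFNα (1.02) and lower with CpG (-0.54). Pomp, Adrm1, Sem1, Nfe2l1 and Nfe2l2 are named for their roles and were picked after their values were seen. In CpG + IFNα against CpG, 1 of the 28 was higher, Ubb (0.32), which encodes ubiquitin, and 1 was lower, Ubqln2 (-0.72), neither past a fold change of 2, where 6.54% of all genes were higher and 8.83% lower. Ubb consists of near-identical repeats, so that its count is uncertain.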

How the data were processed

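BRB sequencing, a 3′ method with sample barcodes and UMIs, was run on 12 samples of FO B cells. The deposited values are raw UMI counts for each gene. Per their methods and the submitters' processing notes, they used UMI-tools 1.1.2, Trim Galore 0.6.7, HISAT2 2.2.1 on GRCm38 and featureCounts 2.0.1, and extended Tlr9. The annotation release and the strand setting are not given in the sources used here. All 22561 gene identifiers were in GENCODE M21, from which positions were taken.

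These counts were analysed in R 4.3.3 with edgeR 4.0.16. After filterByExpr by group and TMM scaling, glmQLFit and glmQLFTest were applied to the 4 groups in 1 model with 8 residual degrees of freedom. P-values were adjusted over the 9431 genes tested by the Benjamini-Hochberg method with a threshold of 0.1, and a log2 fold change of 1 was given beside it. Samples were grouped by their titles. The depth was between 922450 and 2923865 counts per sample. UMI duplicates had been removed, and a gene at 3 counts or fewer in a sample was treated as not measured. No sample was a copy of another, as the chi-square over degrees of freedom of any replicate pair was between 1.90 and 6.31.

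Named with values were the catalytic subunits, the activators, the inhibitor, the chaperones, Psmc3ip, Psma8 and Psmb11 (the last pair by their highest count), the 3 members with the smallest p among those called in each direction and comparison, members that moved against most others, and those with the highest and the lowest level. Of the other pathway genes, the 4 with the smallest p in each direction past a fold change of 2 were named, and 1 gene of that list is not reported here. The members and the lists were chosen with earlier results of these data known. Alternatives were RLE scaling, library size only, other filters, thinning of counts to the lowest depth, only the groups compared, the replicate number as a block, DESeq2 1.42.0, a test against a fold of 1.2, and each sample left out in turn. Removal of mitochondrial genes was added after the data were seen. The tests were checked on simulated counts.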

Additional observations from a re-analysis of the deposited data

Results flagged for a closer look

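In 4 members, 3 interferon-inducible genes and 2 other genes of the pathway, edgeR's test of the interaction had an adjusted p under 0.1. As it is not known if unstimulated cells were cultured, dependence of the IFNα effect on CpG and an effect of culture cannot be told apart. The 4 members, all negative, are 4 of the 42 tested, where 7.58% of all genes tested were negative and 5.84% positive, so that their share is near that of all genes. The values are the log2 effect of IFNα with CpG minus that without CpG. Among the members they were -0.52 for Psma2, -0.58 for Psma6, -0.76 for Psmb5 and -0.73 for Psmg3. Among the interferon-inducible genes they were -0.57 for Psme1, -0.73 for Psme2 and 0.73 for Psmb9. Of the other pathway genes, Nfe2l2 had -0.75 and the ubiquitin ligase Ube3c 0.68. With 3 samples a group, single samples were not examined for distance from the rest.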

How the results depend on the processing

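No member that passed the test in the reported or the alternative fit had opposite signs in them, while values near 0 that passed in neither did change sign. No scaling moved the median of all genes by over 0.1 on the log2 scale. Of the values of single members under the alternatives, 5120 stayed on the same side of the threshold, called or not, 94 lost their call and 35 gained one. For IFNα against unstimulated, scaling by library size alone gave 12 members higher and 1 lower, and a test against a fold of 1.2 gave 7 members where 0 passed a fold change of 2. For CpG + IFNα against CpG, the members higher were 1 with RLE scaling, 2 with no filter, 1 with a filter of CPM of at least 1 in at least 3 samples, 4 with only the groups compared, and 4 without mitochondrial genes, an alternative added after the data were seen. No filter gave 0 members lower in CpG + IFNα against IFNα and 1 in the interaction. The CPM filter moved the median of CpG + IFNα against unstimulated to 1.78. The cause of these shifts was not tested.

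The replicate numbers were not taken to pair the samples, since not every same-numbered pair correlated at over 0.1 after removal of group means. These correlations ran from -0.07 to 0.20 with a median of 0.04, and those of differently numbered samples from -0.20 to 0.06 with a median of -0.02. As a hint from the data and not the design, 10 of 12 samples correlated best with their own number. With the replicate number as a block, 3 members, Psmg4, Psma4 and Psmd3, were higher in CpG + IFNα against CpG where 0 were without it, and 22 in IFNα against unstimulated.

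With each sample left out, the median log2 fold change ranged from 0.24 to 0.38 for IFNα, 1.49 to 1.60 for CpG and 1.61 to 1.70 for CpG + IFNα against unstimulated, from 0.05 to 0.16 for CpG + IFNα against CpG, from 1.31 to 1.41 for CpG + IFNα against IFNα, and from -0.31 to -0.15 for the interaction. Members higher ranged from 11 to 22 for IFNα, 40 to 41 for CpG and 0 to 3 for CpG + IFNα against CpG, the 3 arising without unstimulated replicate 3, and members lower in the interaction from 2 to 5. Genes near 3 counts a sample could not be measured at this depth.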

Other observations

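The order of the 31 subunits by mean level was much alike between groups, as a description across genes that share samples and libraries within a group. Spearman's rho was 0.82 between unstimulated cells and CpG, 0.96 between unstimulated cells and IFNα, and 0.99 between CpG and CpG + IFNα. Psmb7 was the lowest of the 31 in all 4 groups. Psmb1 was the highest in unstimulated cells and with IFNα, and Psma7 was the highest with CpG and with CpG + IFNα. The 44 members lay on 16 chromosomes in the annotation. Another gene was annotated on the other strand across 12 of them and on the same strand across 6. The 2 pseudogenes of members in the count table had at most 1 count in any sample.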
